A study of Mus musculus with 12 samples.

Results

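The collagen hydroxylases and lysyl oxidases are the enzymes that use molecular oxygen to modify collagen and elastin. The family was taken as 10 genes, matched by symbol among the 32285 genes of the deposited tables: the prolyl 4-hydroxylase subunits P4ha1 and P4ha2, the lysyl hydroxylases Plod1, Plod2 and Plod3, and the lysyl oxidases Lox, Loxl1, Loxl2, Loxl3 and Loxl4. All 10 were detected. Their levels were described across the cell classes of the neonatal mouse liver, in control mice against mice with phlebotomy-induced anemia.

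Whole liver of 12 C57BL/6J pups was dissociated and sequenced as single cells with a 10x Genomics 3′ method, 1 library per mouse. In the 6 anemic pups, 20 µL of blood per g of body weight was drawn from the facial vein every other day from postnatal day 2 to day 10, aiming at a hematocrit of 20 to 24%. The 6 control pups received a needle stick each day without loss of blood. All livers were taken on day 11, the day after the last draw, and all 12 samples carry the same batch label. All pups had the same genotype, and hematocrits of the individual pups were not used here.

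Collagen chains are hydroxylated in the endoplasmic reticulum before they fold. Prolyl 4-hydroxylase is a tetramer of catalytic alpha subunits, encoded by P4ha1, P4ha2 or P4ha3 (the last was not taken as a member), with the protein disulfide isomerase P4hb, and its hydroxyproline stabilises the triple helix. Lysyl hydroxylases modify lysines of the helix and, in the case of Plod2, of the telopeptides at its ends, while Plod3 also adds glucose to hydroxylysine that carries galactose. These hydroxylases need oxygen, 2-oxoglutarate, iron and ascorbate. The lysyl oxidases are secreted copper enzymes that use oxygen to turn lysine and hydroxylysine side chains into aldehydes, from which the cross-links of collagen and elastin form. Several members are known targets of the hypoxia-inducible factor (HIF), so they are enzymes that consume oxygen and are also induced when oxygen falls. In the liver, stellate cells, portal fibroblasts and sinusoidal endothelial cells are known sources of matrix and of its modifying enzymes.

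A RefSeq promoter was taken for 5 of the 10 members, from 250 bases before to 50 bases after the gene start on GRCm38.p6. None was taken for Plod2, Lox, Loxl1, Loxl2 and Loxl3, which does not mean that RefSeq holds none for them. The HIF core motif is ACGTG or GCGTG on either strand. Matches of both motifs cannot start at the same letter, but they can overlap. Promoters are shown for 4 hydroxylases with a change in the results below, Plod2 not among them. The motif is the one that HIF binds, and a part of HIF in the changes was not tested. They lie at chr10:59323046-59323345 (plus strand), chr11:54100674-54100973 (plus strand), chr4:147936727-147937026 (minus strand) and chr5:136986769-136987068 (plus strand). Capitals mark every ACGTG or GCGTG, or its complement CACGT or CACGC, in the direction of the gene.
P4ha1: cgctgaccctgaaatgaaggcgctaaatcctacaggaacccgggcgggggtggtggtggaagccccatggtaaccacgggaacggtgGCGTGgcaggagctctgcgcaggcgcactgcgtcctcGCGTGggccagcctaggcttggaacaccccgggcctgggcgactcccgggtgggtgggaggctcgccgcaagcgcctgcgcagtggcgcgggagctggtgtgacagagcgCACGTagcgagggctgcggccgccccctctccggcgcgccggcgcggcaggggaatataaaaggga
P4ha2: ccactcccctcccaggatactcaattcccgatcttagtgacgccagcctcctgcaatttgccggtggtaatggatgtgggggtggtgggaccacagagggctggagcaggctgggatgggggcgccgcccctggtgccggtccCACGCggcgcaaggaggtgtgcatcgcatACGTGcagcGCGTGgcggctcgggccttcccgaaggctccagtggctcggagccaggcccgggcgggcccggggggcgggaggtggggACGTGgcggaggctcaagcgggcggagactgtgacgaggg
Plod1: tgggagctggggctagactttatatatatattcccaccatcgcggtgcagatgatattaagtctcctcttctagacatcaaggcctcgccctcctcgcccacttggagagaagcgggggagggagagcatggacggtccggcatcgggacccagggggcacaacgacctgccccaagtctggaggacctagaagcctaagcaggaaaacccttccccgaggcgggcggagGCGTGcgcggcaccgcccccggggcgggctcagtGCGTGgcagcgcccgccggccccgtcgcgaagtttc
Plod3: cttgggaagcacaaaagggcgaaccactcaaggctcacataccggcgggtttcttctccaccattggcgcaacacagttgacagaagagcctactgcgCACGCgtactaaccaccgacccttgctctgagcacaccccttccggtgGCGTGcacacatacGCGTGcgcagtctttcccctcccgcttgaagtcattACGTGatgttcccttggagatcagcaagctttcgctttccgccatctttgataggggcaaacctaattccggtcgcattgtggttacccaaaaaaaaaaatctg

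P4ha2 held 2 ACGTG and 2 GCGTG matches, Plod3 held 1 and 3, P4ha1 held 1 and 2, and Plod1 held 2 GCGTG matches only. The promoter of Loxl4, which was called in neither class tested, held 1 GCGTG. Of 32851 promoters of the same length, 43.77% held at least 1 match of either motif, 20.64% at least 2 and 8.93% at least 3. These shares are over promoters of any base content, while the promoters shown held 53.33 to 70.33% G and C. A match is a stretch of letters and not a measured binding site. On GRCm38 (GENCODE M21) the 7 members with a change span P4ha1 at chr10:59323296-59373304, P4ha2 at chr11:54100095-54131665, Plod1 at chr4:147909753-147936767, Plod2 at chr9:92542223-92608428, Plod3 at chr5:136987019-136996648, Loxl2 at chr14:69609068-69695834 and Loxl3 at chr6:83034173-83052562. The counts are per whole gene, so no exon or isoform was told apart, and the RefSeq start of P4ha2 lies within its GENCODE span.

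The 12 libraries held 207537 cell barcodes, of which 206146 were kept, with 46252146 to 65960679 UMIs (unique molecular identifiers, each 1 captured RNA molecule) per control library and 52021617 to 74545930 per anemic library. Any pair of libraries shared 51 to 121 barcodes, at most 0.694% of the smaller library. Cells were clustered without the family and named from marker genes into 19 classes, and each class name means cells with the markers of that type. Clusters of 13184 cells stayed unnamed. Levels are UMIs of a gene scaled to the total of its class in a mouse, as CPM. Each UMI stands for 1 molecule read at its 3′ end, so levels were not divided by gene length and are compared across classes and groups, not between genes. Anemic mice 2 and 3 stood apart from the other 10: they held 4981 and 2335 monocytes against 291 to 526, 774 and 939 sinusoidal endothelial cells against 1611 to 2700, and 48 and 27 stellate cells against 161 to 495. RNA of the Y chromosome was found in 2 of 6 control and 4 of 6 anemic mice. Results that change without mice 2 and 3 are given beside the result.

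The members were left out of the clustering that gave the classes. Lox and Loxl1 RNA lay mainly in fibroblasts, smooth muscle and mesothelial cells. Lox averaged 255 ± 42.2 CPM in fibroblasts and 252 ± 41.4 CPM in smooth muscle (mean ± SD, n = 12 mice, here and for the other class levels), a step that did not pass (exact sign-flip permutation test, adjusted p = 0.854), and 140 ± 34.9 CPM in mesothelial cells, below smooth muscle in 12 of 12 mice (exact permutation test, adjusted p = 0.00195). Loxl1 averaged 446 ± 38.9 CPM in fibroblasts, above the 201 ± 31.1 CPM of smooth muscle in 12 of 12 mice (exact permutation test, adjusted p = 0.00195), and the fibroblasts held 61.6% of all Loxl1 UMIs of the series. Loxl3, a lysyl oxidase with scavenger receptor domains like Loxl2 and Loxl4, was also highest in fibroblasts, at 37.2 ± 6.97 CPM. Loxl4, with 609 UMIs in the whole series, was highest in stellate cells, at 7.17 ± 1.87 CPM against 2.76 ± 1.81 CPM in fibroblasts.

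Loxl2, which acts on collagen IV of basement membranes, had a wider spread. It averaged 178 ± 44.6 CPM in stellate cells, 156 ± 30.2 CPM in fibroblasts and 147 ± 20.6 CPM in mesothelial cells, and neither step in that order passed the test (exact permutation test, adjusted p = 0.126 and 0.522). In control mice alone these means were 142, 143 and 142 CPM, and in anemic mice 214, 168 and 151 CPM. In sinusoidal endothelial cells Loxl2 reached 112 ± 25.8 CPM, and that class held 49.7% of all Loxl2 UMIs. The lymphoid, myeloid and erythroid classes, megakaryocytes aside, averaged between 0.981 CPM in neutrophils and 3.40 CPM in B cells. Neutrophils held 25 Loxl2 UMIs, too few for a test against control mice.

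Of the hydroxylases, P4ha1 reached the count needed for a test (a mean of 5 UMIs per mouse) in 18 classes, Plod1 and Plod3 in 17, Plod2 in 12 and P4ha2 in 8. The lysyl oxidases reached it in 2 (Loxl4) to 11 (Loxl2) classes. UMIs of P4ha1 were found in every class, and RNA from outside the cells was not subtracted. It averaged 247 ± 30.8 CPM in sinusoidal endothelial cells and 243 ± 32.7 CPM in stellate cells (exact permutation test, adjusted p = 0.568), 180 ± 26.2 CPM in macrophages, 92.4 ± 25.5 CPM in T cells and 9.13 ± 5.73 CPM in erythroid cells. P4ha2 was highest in fibroblasts, at 51.4 ± 9.72 CPM, above smooth muscle at 17.8 ± 4.85 CPM in 12 of 12 mice (exact permutation test, adjusted p = 0.00195). Plod1 led in sinusoidal endothelial cells at 183 ± 23.4 CPM, above stellate cells at 148 ± 36.0 CPM in 11 of 12 mice (exact permutation test, adjusted p = 0.00326). Macrophages were at 132 ± 16.0 CPM, and the step from stellate cells did not pass (exact permutation test, adjusted p = 0.199). In control mice alone the means were 119.9 CPM in stellate cells and 123 CPM in macrophages. Plod2 led in fibroblasts at 216 ± 52.3 CPM and averaged 107 ± 40.6 CPM in stellate cells, 35.7 ± 18.1 CPM in sinusoidal endothelial cells and 0.471 ± 0.382 CPM in macrophages. The stellate level is that of a mixed class, of which 54.75% of control and 64.73% of anemic barcodes were called doublets. Higher Plod2 levels without these doublets are given below. Plod3 was found in myeloid and stromal classes alike, with 53.9 ± 8.00 CPM in monocytes, 49.1 ± 9.27 CPM in large-vessel endothelium and 43.2 ± 4.44 CPM in stellate cells, and neither step passed the test (exact permutation test, adjusted p = 0.332 and 0.0673).

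**Figure D1:**
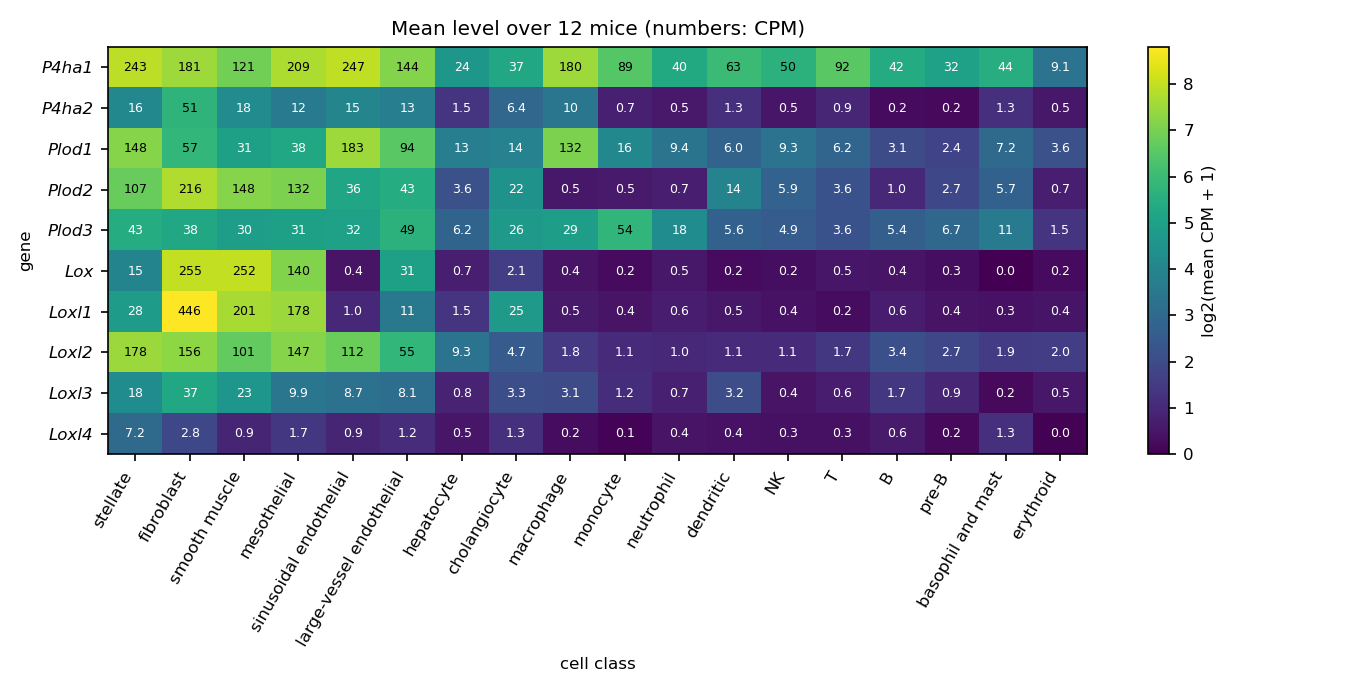
Mean level of the 10 members (rows) in each cell class (columns) over 12 mice, with the colour as log2(mean CPM + 1) and the number in each cell as CPM. Lox and Loxl1 are high in fibroblasts, smooth muscle and mesothelial cells, while P4ha1 is at 9.13 CPM or more in every class tested.

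Over the 10 members, 20 neighbouring pairs of classes were compared and 8 passed the test. With the 6 control mice alone 0 of 20 passed by the exact permutation test, with 7 at an unadjusted p under 0.05, a smallest adjusted p of 0.0893 and a smallest p of 0.03125 that 6 mice allow. No Lox UMI was found among 1104 basophil and mast cells, which allows a level of up to 0.850 CPM, and no UMI of P4ha2, Lox, Loxl1 or Loxl4 among 233 megakaryocytes, which allows up to 2.01 CPM each. These limits cover counting error only.

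The comparison of the design asked what phlebotomy-induced anemia did to these enzymes in each class. Of 106 tests of a member in a class, 16 passed at an adjusted p under 0.05, with 13 higher and 3 lower in anemic mice. The changes lay mainly in sinusoidal endothelial cells, with 6 of 9 members tested (5 higher and 1 lower), and in stellate cells, with 4 of 10 (all higher). The share of all tested genes that passed was 19.3% in the sinusoidal class (8.22% higher and 11.1% lower) and 6.43% in the stellate class (3.75% higher). The median log2 fold change of the members was 0.41 and 0.43 there, against 0.01 and -0.01 over all genes tested. Single members passed, each higher, in NK cells (1 of 4, with 0.679% of all genes called and 0.24% higher), pre-B cells (1 of 5, with 1.38% called and 0.61% higher), macrophages (1 of 6, with 2.6% called and 1.32% higher) and B cells (1 of 5, with 4.06% called and 1.57% higher). In hepatocytes 2 of 5 passed, both lower, where 53.7% of all genes were called and 26.4% were lower, so these counts set no member of the family apart there. Lox, Loxl1 and Loxl4 passed in no class.

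**Figure D2:**
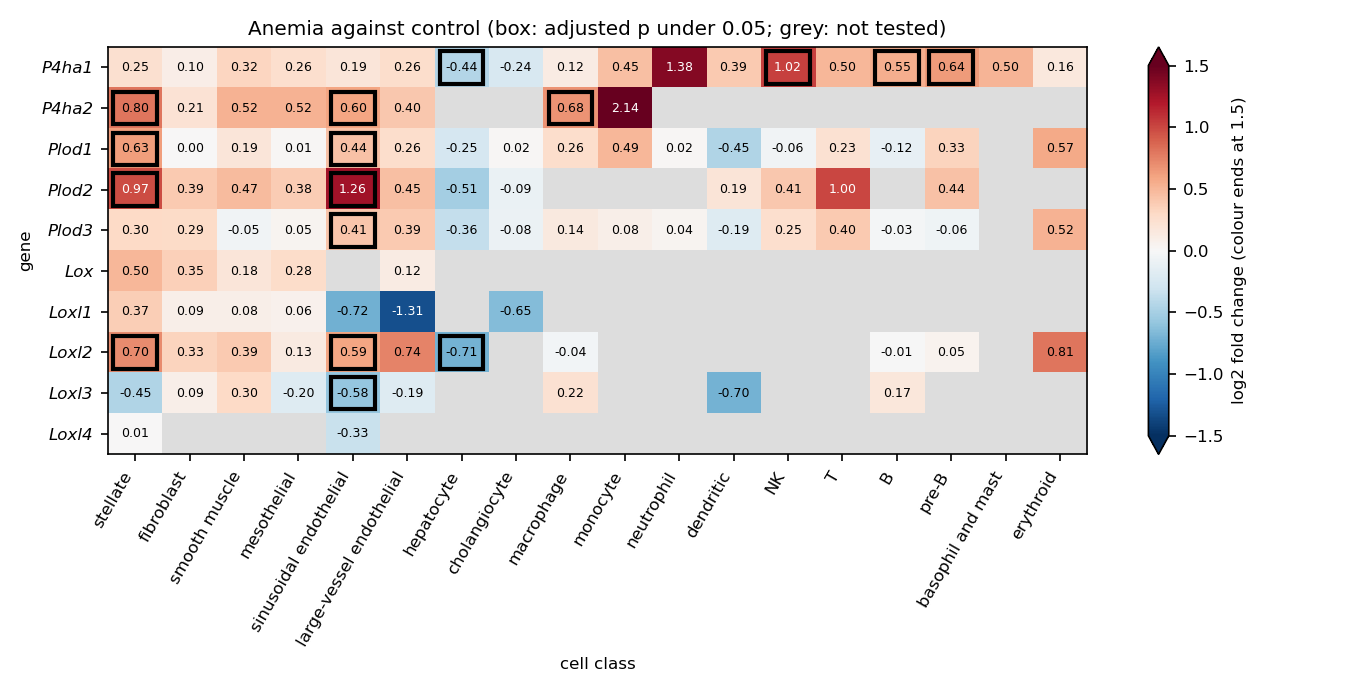
Log2 fold change of each member (rows) in each class (columns), anemic against control mice (n = 6 and 6), with a box around those at an adjusted p under 0.05 and grey where the member was not tested. The boxes gather in the sinusoidal endothelial and stellate columns, and P4ha1 is boxed in 3 lymphoid classes.

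Plod2 gave the largest change among the lysyl hydroxylases. In sinusoidal endothelial cells its lowest, median and highest levels were 19.5, 20.3 and 30.1 CPM in control mice and 23.8, 51.6 and 66.0 CPM in anemic mice. Only the lowest anemic mouse lay within the control range. The log2 fold change was 1.26 ± 0.20 (SE, n = 6 and 6, here and below), with an adjusted p of 0.000800. In stellate cells Plod2 went from 62.8, 75.9 and 94.6 CPM to 83.7, 135 and 185 CPM. Again 5 of 6 anemic mice lay above every control, with a log2 fold change of 0.97 ± 0.14 (adjusted p = 0.000318). Without anemic mice 2 and 3 the changes were 1.49 and 1.11. Plod2 did not pass in fibroblasts with 0.39 ± 0.15 (adjusted p = 0.334), smooth muscle with 0.47 ± 0.21 (adjusted p = 0.452) and mesothelial cells with 0.38 ± 0.14 (adjusted p = 0.321).

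Plod1, the lysyl hydroxylase of the collagen helix, rose in the same classes with smaller values and no overlap between the groups. Sinusoidal endothelial cells gave 153, 164 and 171 CPM (lowest, median and highest) in control mice and 180, 207 and 216 CPM in anemic mice, a log2 fold change of 0.44 ± 0.06 (adjusted p = 0.000234). In stellate cells the values were 110, 119 and 136 CPM against 143, 170 and 221 CPM, a log2 fold change of 0.63 ± 0.11 (adjusted p = 0.000902). All 6 anemic mice were above all 6 controls in both classes. In macrophages, where Plod1 is also abundant, the log2 fold change was 0.26 ± 0.09 and did not pass by edgeR (adjusted p = 0.122), while the joint voom model called it at 0.23 (adjusted p = 0.0414).

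Plod3 passed by edgeR in 1 of 17 classes tested, the sinusoidal endothelial cells. It went from 24.6, 28.4 and 33.6 CPM to 29.4, 35.2 and 40.0 CPM, and 4 of 6 anemic mice were above every control. The log2 fold change was 0.41 ± 0.10 (adjusted p = 0.0133). The stellate value was 0.30 ± 0.10 (adjusted p = 0.0865), which the joint voom model called at 0.32 (adjusted p = 0.0178), and the large-vessel value 0.39 ± 0.13 (adjusted p = 0.239), so a difference between these classes was not shown.

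**Figure D3:**
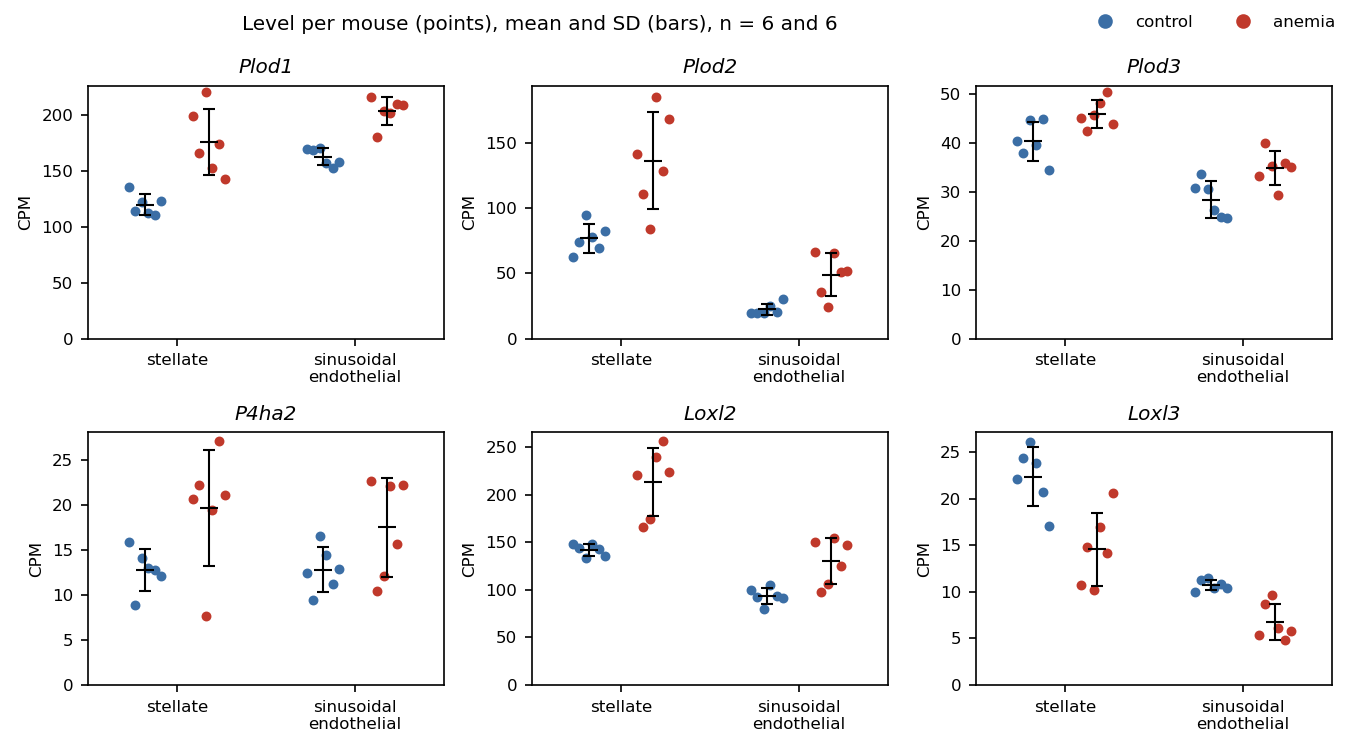
Level in CPM of the members that changed in stellate or sinusoidal endothelial cells, with 1 point per mouse and bars for the mean and SD (n = 6 control and 6 anemic mice). Anemic mice lie above all controls for Plod1 in both classes and for Loxl2 in stellate cells, and below all controls for Loxl3 in sinusoidal endothelial cells. The points are CPM without TMM scaling, and with it the Loxl3 groups overlap.

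Among the prolyl 4-hydroxylases, P4ha2 rose in 3 classes. In stellate cells it measured 8.89, 12.9 and 15.8 CPM in control mice and 7.61, 20.8 and 27.0 CPM in anemic mice, with a log2 fold change of 0.80 ± 0.17 (adjusted p = 0.00766). Here 5 of 6 anemic mice were above every control and the last was below every control. In the sinusoidal class it went from 9.39, 12.7 and 16.5 CPM to 10.4, 18.8 and 22.6 CPM, and the groups overlapped (log2 fold change 0.60 ± 0.18, adjusted p = 0.0352). In macrophages it went from 7.40, 7.87 and 8.98 CPM to 6.43, 13.3 and 14.7 CPM, again with 5 mice above and 1 below all controls (0.68 ± 0.16, adjusted p = 0.0388). The last 2 calls were close to the threshold. With each mouse left out in turn, the macrophage call was kept in 2 of 12 fits (adjusted p up to 0.0862) and the sinusoidal call in 5 of 12 (up to 0.0779). The macrophage call was also lost under 5 of 14 alternatives and within both clusters fitted, 2 and 7 (adjusted p = 0.0934 and 1.00). Without anemic mice 2 and 3 all 3 classes kept the call, at 0.86, 0.81 and 0.84. Cluster 7 of the macrophages made up 51.7% and 28.6% of the macrophages of mice 2 and 3 and 1.56 to 11.3% of those of the others. Mice 2 and 3 held the 2 lowest anemic levels of P4ha2, 11.4 and 6.43 CPM, against 12.9 to 14.7 CPM in the other anemic mice. Mouse 2, with the larger share of cluster 7, lay above mouse 3, and anemic mouse 6, at 11.3%, was at 14.2 CPM. The part of cluster 7 in the levels was not tested. Erythroid markers were higher in macrophages (3 of 11 tested, 944 to 6481 CPM against 3288 to 15455 CPM), and P4ha2 stood at 0.485 CPM in the erythroid class; their part in the result was not tested. All 8 classes tested gave a positive P4ha2 value. That of monocytes, 2.14 ± 1.15, rests on 2 UMIs in control mice and 74 in anemic mice, of which 58 and 14 were in mice 2 and 3. Monocytes thus reached the count needed for a test only through the anemic mice. In classes not tested the means went both ways, as in cholangiocytes (7.99 to 4.85 CPM, on 21 and 15 UMIs) and dendritic cells (0.98 to 1.57 CPM, on 16 and 24 UMIs).

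P4ha1, an alpha subunit as well, rose in NK, pre-B and B cells. In NK cells it measured 27.6, 31.5 and 42.1 CPM in control mice and 52.7, 65.5 and 77.2 CPM in anemic mice, with no overlap. The log2 fold change was 1.02 ± 0.13 (adjusted p = 0.00175), and each of the 3 NK clusters gave it on its own, at 0.94 to 1.03. Genes of T cells are among the leading genes of 2 of these clusters, Cd3g in cluster 23 and Trac and Cd8a in cluster 26. Cluster 26 made up 8.51 to 51.1% of the class in anemic mice. In pre-B cells the values were 17.7, 26.5 and 29.5 CPM against 30.6, 39.0 and 50.8 CPM, also with no overlap (0.64 ± 0.12, adjusted p = 0.0112), and the call was lost in cells low in markers of other classes (adjusted p = 0.0551). In B cells they were 25.2, 34.4 and 45.7 CPM against 44.1, 46.7 and 68.2 CPM, with 4 of 6 anemic mice above every control (0.55 ± 0.14, adjusted p = 0.0334). Within single clusters P4ha1 passed in 1 of 2 pre-B clusters fitted (0.54 and 0.58) and in 1 of 4 B clusters (0.67 in cluster 16, 0.31 to 0.37 in the others). Cluster 16 held the 6 pre-B markers at a summed 1619 CPM beside the 9 B markers at 15499 CPM, against 212 to 262 CPM of pre-B markers in the other B clusters and 1854 CPM in cluster 18, the largest of the pre-B class, so it stands between the classes by these markers. It made up 51.2 ± 4.29% of the B cells in control mice and 39.2 ± 11.2% in anemic mice, and cluster 20 made up 24.3 ± 3.23% and 41.3 ± 10.3%. The B cell call was kept in 6 of 12 fits with 1 mouse left out. It was lost without anemic mice 2 and 3 together (0.58, adjusted p = 0.0655), in cells low in hepatocyte markers (0.57, adjusted p = 0.0846) and in cells low in markers of other classes (0.57, adjusted p = 0.0591). Erythroid markers were higher in anemic mice in pre-B cells (7 of 7 tested, summed level 492 to 3390 CPM against 2517 to 7790 CPM) and in B cells (4 of 9 tested, 1467 to 5599 CPM against 4514 to 8439 CPM), and no list had more than 1 called marker in NK cells. P4ha1 stood at 9.13 CPM in the erythroid class, and the part of the erythroid markers in the pre-B and B cell values was not tested.

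**Figure D4:**
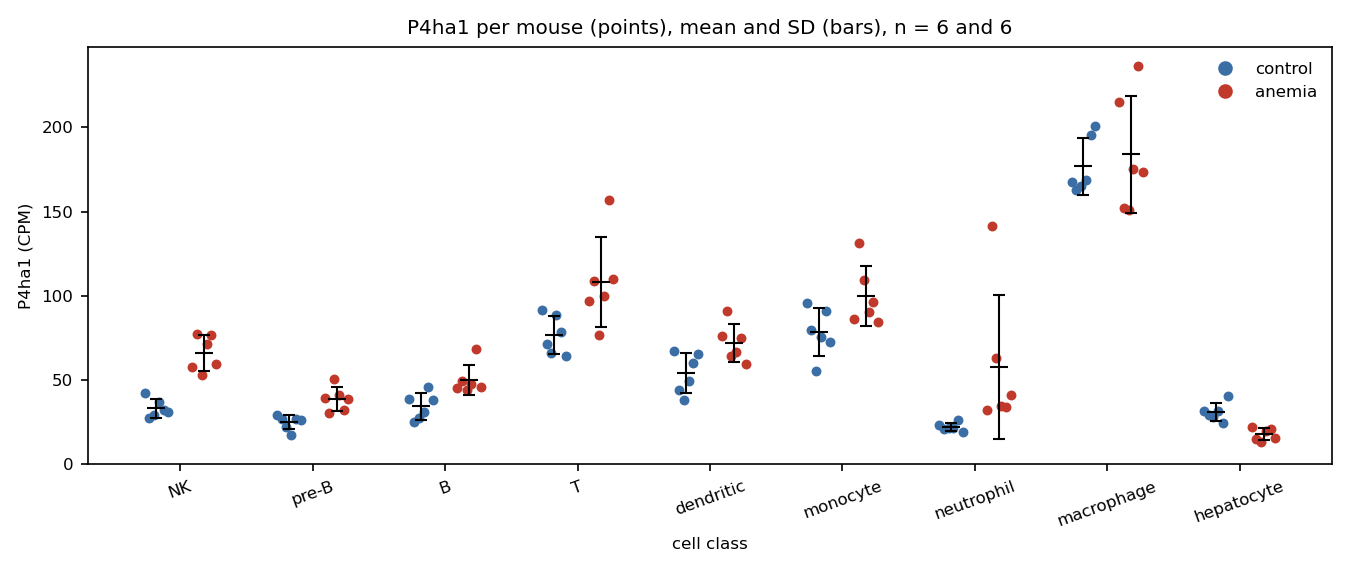
P4ha1 level in CPM in the blood cell classes and in hepatocytes, with 1 point per mouse and bars for the mean and SD (n = 6 and 6). Anemic mice lie above all controls in NK cells, pre-B cells and neutrophils, where 1 anemic mouse reached 141 CPM.

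In other blood cells P4ha1 was positive in value but did not pass with all mice. T cells gave 0.50 ± 0.14 (adjusted p = 0.163), dendritic cells 0.39 ± 0.13 (adjusted p = 0.203) and monocytes 0.45 ± 0.16 (adjusted p = 0.223). In neutrophils the values were 19.3, 21.6 and 26.3 CPM against 32.4, 37.9 and 141 CPM. The groups did not overlap, and 1 anemic mouse stood far above the rest. Of the 6355 cells of neutrophil cluster 8, 70.0% came from anemic mice, against 47.4 to 58.1% in the other neutrophil clusters. The part of cluster 8 in the values was not tested. The test gave 1.38 ± 0.35 with an adjusted p of 0.131, while DESeq2 gave an adjusted p of 0.0171. Without anemic mice 2 and 3 both T cells (0.61, adjusted p = 0.0180) and neutrophils (0.61, adjusted p = 0.0470) passed. Where P4ha1 is most abundant the values were smaller: 0.19 ± 0.09 in sinusoidal endothelial cells (adjusted p = 0.178), 0.25 ± 0.11 in stellate cells (adjusted p = 0.207) and 0.12 ± 0.11 in macrophages (adjusted p = 0.561). The joint voom model called the sinusoidal value at 0.22 (adjusted p = 0.00383). Without mice 2 and 3 the sinusoidal and stellate values were 0.31 (adjusted p = 0.00427) and 0.35 (adjusted p = 0.0226), past the threshold.

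Of the lysyl oxidases, Loxl2 rose in stellate and sinusoidal endothelial cells, and did not pass in fibroblasts (adjusted p = 0.379), mesothelial cells or smooth muscle, where it is also abundant. In stellate cells it measured 134, 144 and 149 CPM in control mice and 166, 222 and 257 CPM in anemic mice, so that all 6 anemic mice were above all controls. The log2 fold change was 0.70 ± 0.10, with an adjusted p of 0.000215. In sinusoidal endothelium it went from 79.5, 93.2 and 105 CPM to 97.4, 136 and 155 CPM, with 5 of 6 anemic mice above every control (0.59 ± 0.11, adjusted p = 0.00157). In large-vessel endothelium the values were 25.3, 38.4 and 70.2 CPM against 58.8, 65.9 and 82.4 CPM, and the edgeR test did not pass (0.74 ± 0.20, adjusted p = 0.115), whereas DESeq2 did (adjusted p = 0.0425).

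Loxl3 fell in sinusoidal endothelial cells, the only lysyl oxidase called lower outside hepatocytes. It measured 9.98, 10.6 and 11.5 CPM in control mice and 4.88, 6.00 and 9.61 CPM in anemic mice. All 6 anemic mice were below all controls in CPM, before the libraries were scaled to each other. Once scaled by the TMM factors of the test, anemic mouse 3 lay above control mouse 1, so the groups overlapped. The log2 fold change was -0.58 ± 0.16 (adjusted p = 0.0191), or -0.84 without anemic mice 2 and 3. The stellate value pointed the same way, from 17.1, 22.9 and 26.0 CPM to 10.2, 14.5 and 20.6 CPM, but did not pass (-0.45 ± 0.17, adjusted p = 0.124).

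Lox, the enzyme of elastic fibres and fibrillar collagen, was tested in 5 classes and was positive in value in each. In fibroblasts it measured 195, 232 and 245 CPM in control mice and 238, 273 and 358 CPM in anemic mice, and 5 of 6 anemic mice were above every control. The log2 fold change of 0.35 ± 0.11 did not pass among all genes (adjusted p = 0.198). Loxl1 gave 0.09 ± 0.10 in fibroblasts (adjusted p = 0.841) and -0.72 ± 0.28 in sinusoidal endothelial cells (adjusted p = 0.0911), where it stood at 0.968 CPM. Loxl4 was tested in 2 classes, with 0.01 ± 0.22 in stellate cells (adjusted p = 0.999) and -0.33 ± 0.28 in sinusoidal endothelial cells (adjusted p = 0.450).

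In the 11 classes with no call, 62 tests of members gave 0 calls by edgeR, 2 by DESeq2 and 2 by the joint voom model, with 15 at an unadjusted p under 0.05 and 51 positive in value. These 2 were the same pair with both tools, Loxl2 in large-vessel endothelium and P4ha1 in neutrophils. For the counts at an unadjusted p and for the signs no share over all genes is given, so they have no background here. The background shares of called genes in these classes, at an adjusted p under 0.05, ran from 0.0308 to 0.614%. They were 0.0581% in basophil and mast cells, 0.202% in smooth muscle, 0.244% in neutrophils, 0.272% in erythroid cells, 0.505% in fibroblasts, 0.524% in dendritic cells, 0.532% in monocytes, 0.583% in large-vessel endothelium, 0.587% in T cells and 0.614% in mesothelial cells. In fibroblasts all 9 members tested were positive in value and 3 had an unadjusted p under 0.05, also without a share over all genes beside them.

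In the other mesenchymal and endothelial classes the levels of the members ran from 0.891 CPM for Loxl4 in smooth muscle to 446 CPM for Loxl1 in fibroblasts. No member passed there by edgeR, and Loxl4 was not tested there. A doublet caller marked 63.24% of control and 54.81% of anemic fibroblast barcodes and 34.37% and 40.03% of those of large-vessel endothelium. The shares were 73.7% and 67.75% in mesothelial cells and 74.7% and 50.0% in smooth muscle. Plod2 in fibroblasts measured 172, 187 and 216 CPM (lowest, median and highest) in control mice and 159, 232 and 351 CPM in anemic mice, with 4 of 6 anemic mice above and 1 below every control. Mesothelial cells gave 84.4, 127 and 132 CPM against 121, 146 and 195 CPM for Plod2, again with 4 of 6 above every control. Loxl2 in fibroblasts overlapped widely, with 121, 132 and 195 CPM against 119, 175 and 194 CPM (0.33 ± 0.14, adjusted p = 0.379).

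P4ha2 in smooth muscle measured 10.7, 14.9 and 19.4 CPM in control mice and 16.2, 20.3 and 28.2 CPM in anemic mice, with 4 of 6 anemic mice above every control (0.52 ± 0.24, adjusted p = 0.497). For the large-vessel class, Plod3 went from 32.5, 41.0 and 55.5 CPM to 47.0, 53.7 and 63.2 CPM and Plod2 from 30.3, 37.4 and 49.5 CPM to 21.1, 52.2 and 67.4 CPM (0.45 ± 0.20, adjusted p = 0.387). Loxl1 ran lower there in value, from 3.03, 12.7 and 46.0 CPM to 2.31, 4.07 and 10.8 CPM, on 94 and 51 UMIs (-1.31 ± 0.56, adjusted p = 0.383). All of these ranges overlapped between the groups. Without doublets the large-vessel Loxl2 value was 0.89 (adjusted p = 0.0921).

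The stellate class was a mixture as sequenced. Its barcodes carried the 9 stellate markers at a summed median of 6326 CPM in the controls and 5156 CPM in the anemic mice, against 191 and 195 CPM among the sinusoidal endothelial cells. They also carried the 6 sinusoidal markers at 4036 CPM (3527 to 4418) in the controls and 4044 CPM (3692 to 4868) in the anemic mice, against 8682 and 8134 CPM in the sinusoidal class itself. No marker of either list was at 0, and no sinusoidal marker was called. A doublet caller marked 54.75% of the control and 64.73% of the anemic barcodes, with a median of 12091.5 UMIs against 3556 in the others. Erythroid markers moved too, with 7 of 8 tested called higher and a summed level of 1077 to 4354 CPM in the controls and 1478 to 9521 CPM in the anemic mice. In erythroid cells Plod2 stood at 0.684 CPM and Plod1 at 3.59 CPM, and the part of these markers in the stellate results was not tested.

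Without called doublets the sinusoidal markers were still at 2422 and 2740 CPM, and the 9 stellate markers at 11875 and 11270 CPM. This selection left 6 control and 4 anemic mice with at least 20 cells, without anemic mice 2 and 3. Plod2 went from a median of 121 to 237 CPM (log2 fold change 1.03, adjusted p = 0.00135). Loxl2 went from 161 to 280 CPM (0.91, adjusted p = 0.000398). Plod1 went from 90.2 to 142 CPM (0.82, adjusted p = 0.00459) and P4ha2 from 15.4 to 31.7 CPM (1.15, adjusted p = 0.0360). With doublets kept, the same 10 mice gave 1.11, 0.82, 0.58 and 0.86 in this order, so that the Plod2 value was smaller without doublets and the other 3 were larger. Keeping instead the cells with the lower share of markers of other classes in 6 control and 5 anemic mice gave 0.91, 0.72, 0.72 and 1.17 in the same order, all past the threshold. Fewer cells of a type within the mixture and less RNA per cell cannot be told apart from the sums.

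**Figure D5:**
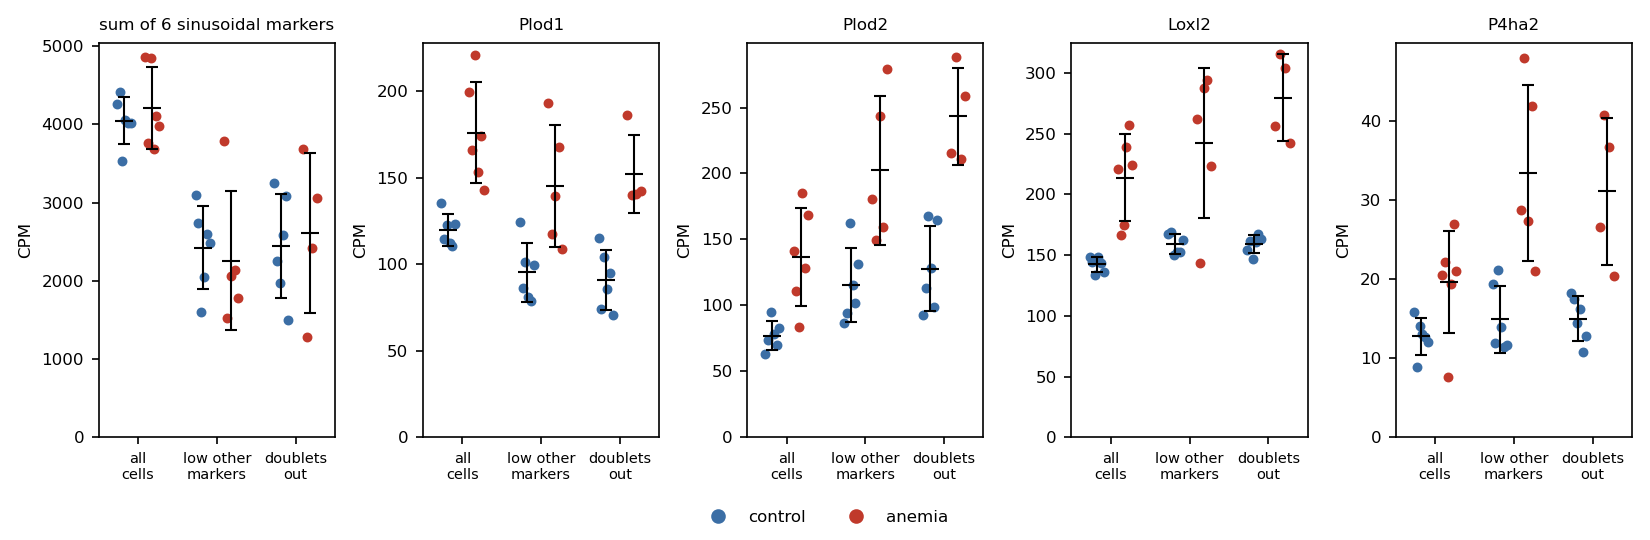
Level in CPM per mouse (points; bars for the mean and SD) of a marker sum and 4 members in the stellate class for all cells, for cells low in markers of other classes and with doublets left out, in control and anemic mice. The mean sum of the 6 sinusoidal markers is lower in both selections than in all cells. For the cells low in markers of other classes this follows from the selection itself. The medians of Plod1, Plod2, P4ha2 and Loxl2 are higher in anemic mice in each selection.

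The sinusoidal class consisted of 5 clusters whose shares differed between the groups. Cluster 28 made up 42.3 ± 4.32% of the class in control mice and 15.7 ± 3.36% in anemic mice, and cluster 45 made up 28.5 ± 6.80% and 48.9 ± 5.10%. Cluster 47, which scored 1.91 for the sinusoidal and 1.86 for the large-vessel markers, went from 9.37 ± 0.745% to 13.98 ± 2.74%, and has Vwf and Selp of the large-vessel list among its leading genes. Within single clusters Plod2 passed in 5 of 5 (0.96 to 1.42), Loxl2 in 5 of 5 (0.51 to 0.90) and Plod1 in 4 of 5. Plod3 passed in 2 of 5. Loxl3 passed in cluster 45 only (-0.69, adjusted p = 0.0203) out of 4 tested, and P4ha2 in cluster 28 only (0.98, adjusted p = 0.00292). Of 12 erythroid markers tested, 8 were higher in the class, with a sum of 1070 to 3109 CPM in the controls and 3515 to 8359 CPM in the anemic mice. The large-vessel markers were also higher (5 of 7 tested, 263 to 370 CPM against 443 to 735 CPM), and their part in the results was not tested. The 9 stellate markers stood at 184 to 209 CPM in the controls and 106 to 250 CPM in the anemic mice.

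In hepatocytes the calls went the other way. P4ha1 fell from 24.3, 30.5 and 40.3 CPM to 13.2, 17.8 and 22.1 CPM, with no overlap in unscaled CPM (-0.44 ± 0.15, adjusted p = 0.0170). The TMM factors of the test were 1.11 to 1.21 in control and 0.84 to 0.93 in anemic hepatocytes. They bring the P4ha1 groups closer together than they are in CPM. Loxl2 fell from 8.31, 11.3 and 21.9 CPM to 2.20, 6.41 and 9.77 CPM (-0.71 ± 0.27, adjusted p = 0.0351). In the same barcodes 13 of 14 mesenchymal markers were lower, with a sum of 593 to 975 CPM in the controls and 38.2 to 242 CPM in the anemic mice. The 12 endothelial markers, 11 of them lower, fell from 584 to 886 CPM to 118 to 377 CPM. Their part in the result was not tested. Plod1 in hepatocytes went from 13.6, 14.7 and 18.4 CPM to 8.14, 10.5 and 11.0 CPM with no overlap, but did not pass once the libraries were scaled to each other (-0.25 ± 0.13, adjusted p = 0.114). Without that scaling the median of all hepatocyte genes moved by -0.41. The joint voom model called Loxl3 lower in hepatocytes (-1.38, adjusted p = 0.0155), on 27 UMIs in control and 5 in anemic mice, where edgeR did not test it. Within single hepatocyte clusters P4ha1 passed in 0 of 3 fitted by edgeR, at 0.17, 0.0096 and -0.48 (adjusted p = 0.601, 0.999 and 0.490). Loxl2 could be fitted in cluster 1 alone, at 0.0168 (adjusted p = 0.995). With doublets left out Loxl2 was at 0.31 (adjusted p = 0.625) and P4ha1 at -0.41 (adjusted p = 0.116). The Loxl2 call was kept in 8 of 12 fits with 1 mouse left out (adjusted p up to 0.0805), and lost without control mouse 1 or 4 or anemic mouse 3 or 5. In cells low in markers of other classes P4ha1 was at -0.31 (adjusted p = 0.511). Without anemic mice 2 and 3 both missed the threshold (-0.35, adjusted p = 0.0500, and -0.60, adjusted p = 0.0624). With the Y-linked level as a covariate Loxl2 missed it too (-0.65, adjusted p = 0.0830).

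Whether a change differed between classes was tested directly, over the 12 mice, for each member between the called class with its smallest adjusted p and every other class. The same mice chose that class, which is not always the class with the largest change. Of 85 pairs 17 passed. The P4ha1 change of NK cells exceeded that of 11 of 17 other classes, among them B cells by 0.43, T cells by 0.50, macrophages by 0.93 and sinusoidal endothelial cells by 0.92 on the log2(CPM + 1) scale (exact permutation test, adjusted p from 0.0167 to 0.0325). The Loxl3 change of sinusoidal endothelial cells lay below those of fibroblasts by 0.73 and macrophages by 0.75. For Plod2 and Loxl2 the stellate change exceeded that of hepatocytes, by 1.58 and 1.60, and for Plod1 and Plod3 the sinusoidal change exceeded that of hepatocytes, by 0.84 and 0.87. These CPM differences hold the shift of all hepatocyte genes given above. With levels scaled by TMM factors they were 1.47, 1.43, 0.68 and 0.73, and all 4 passed (exact permutation test, adjusted p from 0.0167 to 0.0263). No other pair of these 4 members passed on the CPM scale. P4ha2 passed in 0 of 7 pairs by this exact permutation test. The smallest p the design allows is 0.00216.

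Genes that act with the family were described from lists. Over 252 class tests, the genes of proline hydroxylation and collagen folding gave 8 calls higher and 6 lower, in 4 classes. The share of all genes called ran from 0.0308% in cholangiocytes to 53.7% in hepatocytes. In sinusoidal endothelial cells 5 of 18 genes of this list rose. P3h2, a prolyl 3-hydroxylase, went from 15.2 ± 1.86 to 39.7 ± 11.4 CPM (mean ± SD, n = 6 and 6), a log2 fold change of 1.51 (adjusted p = 2.96e-05). P4hb, the partner of the P4ha subunits, rose by 0.34 (adjusted p = 0.0254), and the collagen chaperone Serpinh1 by 0.36 (adjusted p = 0.0277). Crtap, a component of the prolyl 3-hydroxylase complex, rose by 0.36 (adjusted p = 0.0181), and Pdia3, a disulfide isomerase, by 0.26 (adjusted p = 0.0464). The other 13 did not pass. The median of the 18 genes was 0.11, against 0.01 over all genes tested, of which 19.3% passed in this class and 8.22% passed higher.

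Of the collagen chains, the substrates of the family, 3 of 14 rose and 1 fell in sinusoidal endothelial cells. Unlike the other lists, this list was not kept out of the clustering that gave the classes. Col4a1 of basement membranes went from 700 ± 12.5 to 844 ± 139 CPM (0.39, adjusted p = 0.0166), Col5a2 rose by 0.58 (adjusted p = 0.0161) and Col6a3 by 0.98 (adjusted p = 0.00509), while Col13a1, a transmembrane collagen, fell from 278 ± 23.3 to 140 ± 63.5 CPM (-0.88, adjusted p = 0.0294). In stellate cells 3 of 14 rose, Col1a1 by 0.60, Col6a1 by 0.76 and Col6a2 by 0.75 on the log2 scale, where 6.43% of all genes passed and 3.75% passed higher. Of the extracellular partners, 3 of 16 rose and 1 fell in sinusoidal cells. With 19.3% of all genes called there (8.22% higher and 11.1% lower), the counts of both lists lie near the background. Fbn1 and Fn1, scaffolds of the matrix, rose by 0.91 and 0.98, Pcolce, an enhancer of procollagen processing, by 0.58, and Fbln5, an elastic fibre protein that binds lysyl oxidases, fell from 5.51 ± 0.910 to 3.14 ± 0.557 CPM (-0.71, adjusted p = 0.00721). Fbln5 fell in stellate cells as well (-0.86, adjusted p = 0.000301), with Ltbp4 (-0.67, adjusted p = 0.0211). In hepatocytes 12 of 14 collagen chains and 11 of 14 extracellular partners were called lower, beside the mesenchymal markers described above and with 53.7% of all genes called and 26.4% lower.

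The HIF targets gave 100 calls higher and 3 lower over 422 class tests, in 13 classes. The share of all genes called was 53.7% in hepatocytes, where 16 of 23 rose and 2 fell, and 0.0308 to 19.3% in the other classes. In sinusoidal endothelial cells 19 of 25 rose, with a median of 0.57, against 8.22% of all genes called higher there, and in stellate cells 20 of 24 rose and 1 fell, with a median of 0.73, against 6.43% of all genes called there. The glucose transporter Slc2a1 went from 19.7 ± 1.57 to 58.0 ± 11.6 CPM in sinusoidal cells (1.69, adjusted p = 7.14e-07), and Pgk1, a glycolytic kinase, from 275 ± 26.4 to 634 ± 42.0 CPM (1.33, adjusted p = 1.88e-07). Adm, a vasodilator peptide, rose by 1.66, Tpi1 and Eno1 of glycolysis by 1.08 and 1.07, and Pdk1, an inhibitor of pyruvate dehydrogenase, by 0.74. The Plod2 change of 1.26 lay within the range of these 6 genes, which were named from the called genes of the list. The changes of Plod1 (0.44) and Loxl2 (0.59) lay below the 6, and the median of the list was 0.57. A part of HIF in the changes of the members was not tested. Other 2-oxoglutarate dioxygenases, which need the same cofactors, gave 7 calls higher and 12 lower over 318 class tests, in 4 classes. In sinusoidal cells 2 of 19 were called higher and 2 lower, near the 19.3% of all genes called there (8.22% higher and 11.1% lower). Asph, an aspartyl hydroxylase, rose by 1.14 and the methylcytosine dioxygenase Tet2 by 0.53. The transmembrane prolyl hydroxylase P4htm fell from 42.8 ± 5.20 to 21.4 ± 5.53 CPM (-0.88, adjusted p = 0.000661), and the histone demethylase Kdm6b from 606 ± 34.4 to 409 ± 72.9 CPM (-0.45, adjusted p = 0.00630).

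The genes whose class means were most like those of a member, by Pearson's r over the 19 classes, are given as a description, since classes share libraries and depth. For Loxl1 they included Col1a1 (r = 0.990), Gm32618 (r = 0.993) and Gpr173 (r = 0.992), and for Lox they were Plac9b (r = 0.986), Eln (r = 0.983) and Mmp16 (r = 0.981). Eln encodes elastin, a substrate of Lox. Loxl2 was most like Zfpm2 (r = 0.980), C1qtnf1 (r = 0.973) and Ston1 (r = 0.972), Loxl3 most like Scube2 (r = 0.963), Rtn2 and Dact3, and Loxl4 most like Aldh1a3 (r = 0.901), Ptprt and Nr1h5. Among the hydroxylases, Plod1 was most like 1700112J16Rik (r = 0.975), 1110017D15Rik and Rnf213, Plod2 most like Adamts17 (r = 0.956), Gnai1 and Armcx2, and Plod3 most like Gm1673 (r = 0.919), Cx3cr1 and 2010310C07Rik. P4ha1 was most like Fam76a (r = 0.935), Ints6 and Macf1, and P4ha2 most like Gm26802 (r = 0.957), 5730409E04Rik and Ppm1n.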

How the data were processed

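Liver cells of 12 pups, 6 control and 6 anemic by the labels, were measured by single-cell RNA sequencing. The authors deposited raw UMI counts per gene and barcode for each library, and the submitters' processing notes name Cell Ranger, Seurat and mm10. The labels and the study's methods name different versions of the library kit. A barcode was kept if it held between 500 and 50000 UMIs, with no more than 50% of them mitochondrial. Cells were clustered with scanpy 1.11.5 on 2000 variable genes, with 20 components, 20 neighbours and Leiden resolution 2. The members and the lists were kept out of these genes, apart from the list of collagen chains, which could enter. Clusters were named from marker lists, by naming rules settled after the clusters were seen. Doublets were called within each library and kept, unless stated.

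Counts were summed per mouse and class (classes with at least 20 cells in every mouse). Genes that averaged 5 UMIs or more per mouse, mitochondrial and ribosomal protein genes aside, were tested by edgeR 4.0.16 (R 4.3.3; TMM factors, quasi-likelihood test) with Benjamini-Hochberg adjustment over all genes of a class and a threshold of 0.05. SE is the absolute log2 fold change over the square root of F. Differences between classes and the order of levels used two-sided exact permutation tests on log2(CPM + 1), adjusted over all pairs compared. The scripts were tested on simulated data. Alternatives were DESeq2 1.42.0, a joint limma 3.58.1 voom model, other filters, scalings and cell selections, and each mouse left out.

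All members were to be named in every class, with up to 6 called genes of each list in the class with most called members and the 3 genes most like each member, among those reaching 10 CPM in a class. The list genes named for stellate cells were added after their values were seen. Members and lists were chosen with earlier results of these data known. Pups are separate animals, but litters are not given, so p-values measure the spread between pups.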

Additional observations from a re-analysis of the deposited data

Results flagged for a closer look

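P4ha1 in B cells was at 68.2 CPM in anemic mouse 5, far above the other anemic mice. This was the single group with an isolated value among 32 groups of 6 mice examined by Dixon's ratio (critical value 0.625), and chance marks about 1 in 20 such groups. The 32 groups did not cover all members and classes. Loxl1 in large-vessel controls was not among them, with 46.0 CPM in control mouse 1 against 3.03 to 16.0 CPM in the other controls.

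The following results were picked out because the change with anemia differed between classes by an exact permutation test over the 12 mice. The P4ha1 change of NK cells exceeded, on the log2(CPM + 1) scale, that of B cells by 0.43, T cells by 0.50, dendritic cells by 0.54, monocytes by 0.62, mesothelial cells by 0.77, large-vessel endothelium by 0.79, stellate cells by 0.86, sinusoidal endothelial cells by 0.92, macrophages by 0.93, fibroblasts by 0.95 and hepatocytes by 1.74. The stellate change exceeded that of hepatocytes by 1.58 for Plod2 and by 1.60 for Loxl2. The sinusoidal change exceeded that of hepatocytes by 0.84 for Plod1 and by 0.87 for Plod3. For Loxl3 the sinusoidal change minus that of fibroblasts was -0.73, and minus that of macrophages -0.75. The markers of mesenchymal and endothelial cells were lower in the hepatocytes of anemic mice, and their part in the differences from hepatocytes was not tested.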

How the results depend on the processing

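Of the 16 calls, 10 kept their direction and stayed past the threshold under every alternative run and with any single mouse left out: Plod1, Plod2, Loxl2 and P4ha2 in stellate cells, Plod1, Plod2, Plod3, Loxl2 and Loxl3 in sinusoidal endothelial cells and P4ha1 in NK cells. Fits within single clusters are not counted there. With 1 mouse left out the number of calls was 12 to 16. It was 18 with DESeq2 and 21 with the joint voom model, and 17 without anemic mice 2 and 3, of which 13 were shared. With doublets left out it was 10, against 12 among the tests that remained, and with cells low in markers of other classes 8, against 11; fewer classes kept 20 cells in every mouse. In hepatocytes Loxl2 changed sign with doublets left out (0.31) and within cluster 1 (0.0168). P4ha1 kept its sign under all 14 alternatives there and lost the call under 5; within clusters its values were 0.17 and 0.0096 (clusters 1 and 11) and -0.48 (cluster 9). P4ha1 in pre-B cells missed the threshold in cells low in markers of other classes (adjusted p = 0.0551). Calls in the lists went from 177 to 111 with doublets left out (126 among the same tests) and to 237 with DESeq2, differences between classes from 17 to 9 (34 pairs left) and to 20 with levels scaled by TMM factors, an alternative chosen after seeing the data, which kept all 17, and steps in the order of levels from 8 to 4 (14 pairs left) and to 0 with control mice only. P4ha2 in the sinusoidal class was lost without TMM factors (adjusted p = 0.0747). Adjustment over all classes together lost that call (0.0842) and both hepatocyte calls (P4ha1 0.0996, Loxl2 0.163), and the joint voom model lost P4ha1 in hepatocytes (0.118). The replicate block gave 15 calls in the family, all among the 16, and 197 in the lists; the call it lost was P4ha2 in macrophages (0.66, adjusted p = 0.0647). With the Y-linked level as a covariate, 2 calls were lost, P4ha2 in macrophages (0.68, adjusted p = 0.0630) and Loxl2 in hepatocytes (-0.65, adjusted p = 0.0830). Same-numbered mice deviated together, at a correlation over 0.1, in 1 to 4 of 6 pairs per class. The highest correlation was 0.549 in NK cells and the lowest was -0.447 in erythroid cells. The numbers were not taken to pair the mice, but these values do not exclude such a pairing. Without TMM factors the median of all genes moved by -0.41 in hepatocytes and -0.32 in erythroid cells; P4ha1 in hepatocytes was then at -0.82. The cause of these shifts was not tested.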
